A study of Mus musculus with 6 samples.

Results

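The genes described here encode subunits of condensin and cohesin, the protein rings that fold and hold together chromosomal DNA. The 10 genes are Smc2 and Smc4, shared by both condensins, Ncapd2, Ncapg and Ncaph of condensin I, Ncapd3, Ncapg2 and Ncaph2 of condensin II, and Smc1a and Smc3 of cohesin. They were taken by symbol from the 39017 genes of the count table, and all 10 passed the filter on low counts, which left 18268 genes for testing. The cells were iGBs, germinal center-like B cells made by growing mouse splenic B cells on 40LB feeder cells that supply CD40L and BAFF, with IL-4, for 3.5 days. The labels give IL-4 at 5 ng/ml, and the study's methods state a different dose. Prmt1 encodes a protein arginine methyltransferase, and the comparison asks how mRNA levels differ when it is deleted after activation. Control iGBs came from Cg1-cre mice and Prmt1-null iGBs from Cg1-cre Prmt1f/f mice, all on the C57BL6/J background, so the Control cells carry the Cre too. Each group held 3 libraries, each from a different mouse, and within each group 2 mice were female and 1 was male (Control 1 and Prmt1-null 3). The Cre is expressed from the Cγ1 locus, which B cells transcribe once activated, so a culture can hold cells that have not deleted the gene.

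Condensin and cohesin are built on a pair of SMC proteins, long ATPases that join at a hinge, closed into a ring by a kleisin subunit. In condensin I the kleisin is Ncaph and the accompanying HEAT-repeat subunits are Ncapd2 and Ncapg. Condensin II uses Ncaph2, Ncapd3 and Ncapg2 in the same places. Condensin II is nuclear throughout the cell cycle and starts chromosome compaction in prophase, whereas condensin I reaches the chromosomes after the nuclear envelope breaks down. Cohesin, with Smc1a, Smc3 and the kleisin Rad21, holds sister chromatids together from S phase to anaphase and extrudes chromatin loops in interphase. In B cells these loops also bring together the switch regions of the heavy chain locus during class switching. Many condensin genes are transcribed mainly in proliferating cells, and a promoter element called the cell cycle genes homology region (CHR), read by complexes that contain MuvB, is common near the starts of genes that peak late in the cycle.

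Promoter sequences, from 250 bases before to 50 bases after the RefSeq start on GRCm38.p6, were at hand for 9 of the 10 genes, Smc4 being the exception. Both strands were searched for the CHR (TTTGAA), a CHR variant (TTCGAA), the CCAAT box (CCAAT) and an E2F-like element (TTTNNCGC). The CHR was found in 4 of the 9 promoters and in 17.9% of 32851 mouse promoters. The variant was found in 1 of the 9 and in 1.56% of all. CCAAT was found in 4 of the 9 and in 37.4% of all, and the E2F-like element in 4 of the 9 and in 5.17% of all. A match is a match of letters only, and no match of 1 element overlapped a match of another in these 9 promoters. The 30-base windows around the CHR and its variant are shown because these letters recur in condensin promoters, with the match, on either strand, in capitals and each written along the strand of its gene.
Ncapd2: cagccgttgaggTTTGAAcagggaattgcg
Ncapg: ccgcgatagttgTTTGAAaactctggcgct
Ncapg2: tacgcgggtgtgTTTGAAtctggtccgagc
Smc2: tcgctttccatgTTCAAAacggtatagtct
Ncaph2: cttctttacttcTTCGAAactgggcccgcc
These windows lie at chr6:125191692-125191721 on the minus strand for Ncapd2 and, on the plus strand, at chr5:45669883-45669912 for Ncapg, chr12:116405406-116405435 for Ncapg2, chr4:52439064-52439093 for Smc2 and chr15:89355685-89355714 for Ncaph2. Counted from the RefSeq start, the first base of the match was at −123 in Ncapd2, −30 in Ncapg, −18 in Ncapg2, −145 in Smc2 and −22 in Ncaph2. Smc2 had another CHR match at 27 bases after its start. The Ncapd2 promoter was the only one of the 9 with 3 CCAAT matches, and 2 of them stand with the CHR in the 99 bases upstream of its first annotated exon, shown for that reason, with all 3 matches in capitals, from chr6:125191702-125191800 on the minus strand.
Ncapd2 upstream: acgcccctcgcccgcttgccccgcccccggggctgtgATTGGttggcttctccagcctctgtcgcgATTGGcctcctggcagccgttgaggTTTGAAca
E2F-like matches were in Ncapd2, Ncapg, Ncapg2 and Smc1a, and CCAAT matches in Ncapd2, Ncapg, Smc1a and Smc2. The windows of Ncapd3, Ncaph and Smc3 held none of the 4 elements.

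Prmt1 was measured first as a check of the labels. It stood at 71.5, 70.8 and 87.2 normalized CPM (counts scaled to library size, with TMM factors for composition) in Control 1, 2 and 3 and at 31.5, 26.6 and 26.6 in Prmt1-null 1, 2 and 3. The Prmt1-null mean was 36.9% of the Control mean, a log2 fold change of −1.44 (SE 0.095, edgeR quasi-likelihood test, adjusted p = 1.11e-05). Total counts ran from 45343250 to 62774232, and the groups overlapped in depth and in the mitochondrial share of counts (1.95% to 3.51%). B cell markers summed to 6344 to 6691 CPM in Control and 6661 to 7002 in Prmt1-null libraries over 7 genes. Plasma cell markers summed to 966 to 1086 and 1105 to 1195 over 6, feeder fibroblast markers to 16.3 to 20.7 and 20.6 to 25.2 over 11, with Lum and Postn at 0, and T cell and myeloid markers to at most 2.22 and 12.0 in Control, over 5 genes each, with overlap between the groups. The sums of the plasma cell list did not overlap between the groups. With edgeR 0 of its 5 tested genes passed, beside 1.19% of all genes, and 2 had an unadjusted p under 0.05, beside 13.5%. DESeq2 passed 1 of the 4 it gave an adjusted p, beside 5.42% of all genes, and it was higher in Prmt1-null iGBs. The part of these genes in the results below was not tested.

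The SMC pair of both condensins was lower in every Prmt1-null library than in any Control library, as were 9.92% of all genes tested. Smc2 (ENSMUSG00000028312, chr4:52439243-52488260, plus strand, GRCm38) stood at 142, 132 and 119 CPM in Control 1, 2 and 3 and at 109.9, 110.1 and 105 in the Prmt1-null libraries. The Prmt1-null values were tightly grouped and all below the lowest Control value. The means were 131 ± 11.6 (SD, n = 3) and 108 ± 2.89, a log2 fold change of −0.28 (SE 0.068, 95% interval −0.42 to −0.13), and the edgeR adjusted p of 0.0706 missed the threshold of 0.05. Smc4 (ENSMUSG00000034349, chr3:69004738-69034623, plus strand), its obligate partner, stood at 262, 262 and 217 CPM in Control and at 211, 211 and 188 in Prmt1-null iGBs. Replicate 3 was the lowest library in each group, so the gap between Control 3 and the nearest Prmt1-null library was narrow. Smc4 differed by −0.28 on the log2 scale (SE 0.079, 95% interval −0.45 to −0.11, edgeR adjusted p = 0.110). With each library left out in turn, the edgeR adjusted p ran from 0.0137 to 0.252 for Smc2 and from 0.0143 to 0.333 for Smc4. Both passed in 1 of 6 cases, without Control 3, their lowest Control library and so the one nearest to the Prmt1-null values.

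All 3 subunits specific to condensin I were lower in Prmt1-null iGBs with no overlap, beside 9.92% of all genes tested. Ncaph and Ncapd2 passed the test, beside 1.19% of all genes in either direction and 0.602% in the lower direction. Ncaph (ENSMUSG00000034906, chr2:127103809-127133954, minus strand), the kleisin that closes the condensin I ring, stood at 132, 127 and 116 CPM in Control and at 95.1, 102 and 101 in Prmt1-null libraries. The lowest Control library thus exceeded the highest Prmt1-null library. Ncaph fell to 79.6% of the Control mean, from 125 ± 8.32 to 99.4 ± 3.81 (SD, n = 3), a log2 fold change of −0.33 (SE 0.064, 95% interval −0.47 to −0.19, edgeR adjusted p = 0.0266). Ncapd2 (ENSMUSG00000038252, chr6:125168007-125191701, minus strand), the HEAT-repeat subunit whose promoter is printed above, stood at 213, 227 and 230.2 CPM in Control and at 176, 180.2 and 190.1 in Prmt1-null iGBs. Here Control 1 was the lowest Control library, unlike Smc2 and Ncaph, for which it was the highest. Ncapd2 fell from 223 ± 8.89 to 182 ± 7.10, a log2 fold change of −0.29 (SE 0.060, 95% interval −0.42 to −0.17, edgeR adjusted p = 0.0330). Ncapg (ENSMUSG00000015880, chr5:45669919-45700546, plus strand), the other HEAT-repeat subunit, stood at 146, 132 and 124 CPM in Control and at 106, 119 and 117 in Prmt1-null libraries. Its groups lay close together, and the log2 fold change of −0.23 (SE 0.072, 95% interval −0.39 to −0.077) had an edgeR adjusted p of 0.152. The Ncaph call was lost without Control 1 (adjusted p = 0.0658, edgeR), Control 2 (0.125), Prmt1-null 1 (0.158), 2 (0.110) or 3 (0.0884), and the Ncapd2 call without Control 2 (0.152), Prmt1-null 1 (0.184), 2 (0.200) or 3 (0.0695). The Ncapd2 call was also lost with the replicate number as a block (edgeR adjusted p = 0.0529). The strand setting of the authors' counting is not given in the sources used here, and 13.4% of the exon bases of Ncapg lie in exons of Lcorl on the opposite strand, while 3.78% of those of Ncapd2 lie in the small RNA gene Scarna10 on the same strand.

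**Figure D1:**
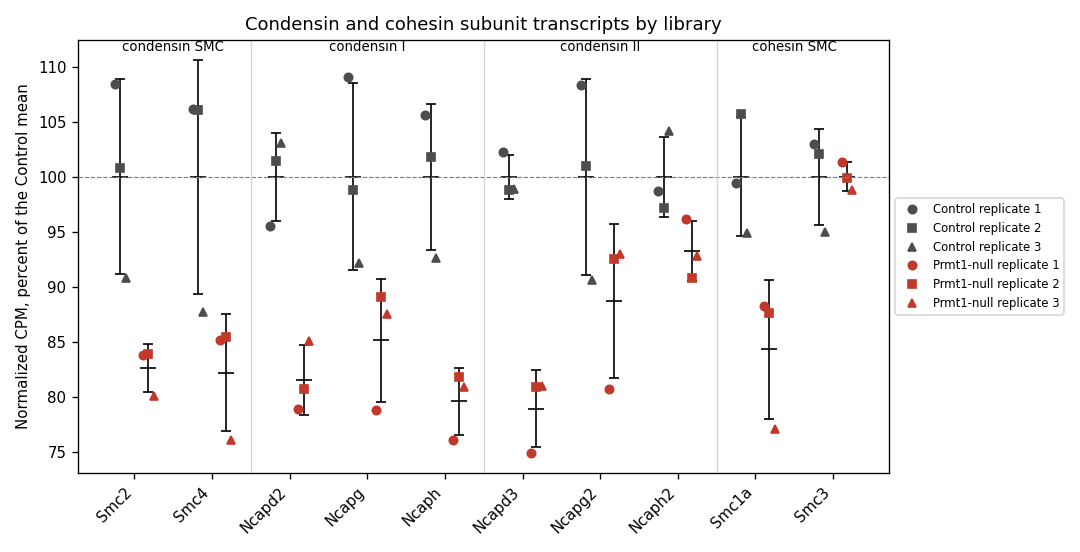
Normalized CPM of each subunit gene in each library (vertical axis, percent of the gene's Control mean, axis not starting at 0), with Control in grey and Prmt1-null in red, symbols for the replicate number, and horizontal and vertical bars for the mean and SD of 3 libraries. The red points lie below all grey points of the same gene for 8 of the 10 genes, beside 9.92% of all genes tested. The exceptions are Ncapg2 and Smc3.

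Of the condensin II subunits, Ncapd3 passed the test and was lower in Prmt1-null iGBs, beside 1.19% of all genes passing in either direction. Ncapg2 and Ncaph2 did not pass. The differences were not tested against each other, and the 95% intervals of all 3 genes overlapped. Ncapd3 (ENSMUSG00000035024, chr9:27030175-27095315, plus strand), the HEAT-repeat subunit that takes the place of Ncapd2, stood at 78.5, 75.8 and 75.9 CPM in Control and at 57.4, 62.1 and 62.2 in Prmt1-null iGBs. Its spread within each group was small beside the gap between them. Ncapd3 fell to 78.9% of the Control mean, from 76.7 ± 1.51 to 60.6 ± 2.70 (SD, n = 3), a log2 fold change of −0.34 (SE 0.061, 95% interval −0.47 to −0.21, edgeR adjusted p = 0.0174). Ncapg2 (ENSMUSG00000042029, chr12:116405402-116463731, plus strand), the counterpart of Ncapg, stood at 130.4, 122 and 109 CPM in Control and at 97.1, 111 and 112 in Prmt1-null libraries. Prmt1-null 2 and 3 exceeded Control 3, so the groups overlapped, and the log2 fold change was −0.17 (SE 0.076, 95% interval −0.34 to −0.0097, edgeR adjusted p = 0.331). It was −0.10 without Prmt1-null 1 and −0.11 without Control 1. Ncaph2 (ENSMUSG00000008690, chr15:89355719-89372826, plus strand), the condensin II kleisin, stood at 66.4, 65.3 and 70.0 CPM in Control and at 64.7, 61.0 and 62.4 in Prmt1-null libraries. The groups were separated by under 1 CPM, and the log2 fold change was −0.10 (SE 0.062, 95% interval −0.23 to 0.032, edgeR adjusted p = 0.520). Of the exon bases of Ncaph2, 19.7% lie in exons of Sco2 and 12.7% in exons of Tymp on the opposite strand. The Ncapd3 call was lost without Control 2 (adjusted p = 0.0736, edgeR), Prmt1-null 1 (0.114), 2 (0.0905) or 3 (0.0681).

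Neither gene of the cohesin SMC pair passed the test. Smc1a (ENSMUSG00000041133, chrX:152016428-152062694, plus strand) stood at 72.8, 77.4 and 69.5 CPM in Control and at 64.6, 64.1 and 56.4 in Prmt1-null iGBs, without overlap. Smc1a is X-linked, and the male Control library lay between the females while the male Prmt1-null library was the lowest of its group. The means were 73.2 ± 3.97 and 61.7 ± 4.61 (SD, n = 3), a log2 fold change of −0.25 (SE 0.071, 95% interval −0.40 to −0.094), with an edgeR adjusted p of 0.119. Smc3 (ENSMUSG00000024974, chr19:53600398-53645833, plus strand), its partner, stood at 65.7, 65.1 and 60.6 CPM in Control and at 64.7, 63.7 and 63.0 in Prmt1-null libraries. All Prmt1-null values fell inside the Control range. The mean was 63.8 in each group, with an SD of 2.78 in Control and 0.837 in Prmt1-null, and the 95% interval of the log2 fold change ran from −0.13 to 0.13 (edgeR adjusted p = 0.999).

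**Figure D2:**
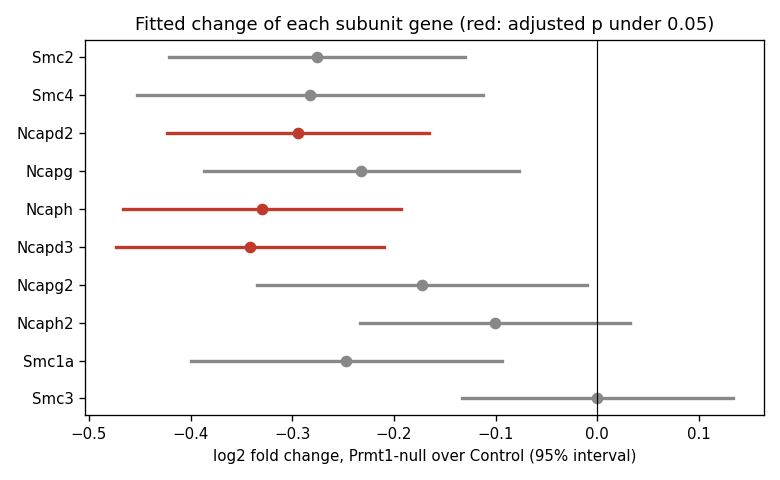
Log2 fold change of each subunit gene, Prmt1-null over Control (horizontal axis), with its 95% interval from the edgeR fit over 3 and 3 libraries, in red where the adjusted p was under 0.05. Ncapd2, Ncaph and Ncapd3 are red, and the intervals of Ncaph2 and Smc3 include 0.

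In all, 3 of the 10 genes passed the threshold, all lower in Prmt1-null iGBs, beside 1.19% of all genes tested in either direction and 0.602% in the lower direction. At an unadjusted p under 0.05 there were 8 of the 10, beside 13.5% of all genes. For 8 of the 10 every Prmt1-null library was below every Control library, beside 9.92% of all genes, and for 0 of the 10 every Prmt1-null library was above, beside 9.95%. The median log2 fold change was −0.26 over the 10 genes and −0.28 over the 8 condensin genes, against −0.00082 over all genes tested. None of the differences was large: the 3 genes that passed retained 78.9% to 81.5% of their Control level. DESeq2 passed 7 of the 10 (Smc2, Smc4, Ncapg and Smc1a in addition), beside 5.42% of the genes it gave an adjusted p, and edgeR without a filter on low counts passed the same 7, beside 2.76% of genes. Bulk RNA cannot tell fewer cells of a cycling stage from less RNA of these genes per cell.

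Ratios between partners within a library do not depend on the scaling of libraries, and 6 were compared by two-sided exact permutation tests, whose smallest possible p over 20 arrangements is 0.1. Levels were first divided by the length of the merged exons. Smc2 and Smc4 kept a near-constant ratio, 0.516, 0.479 and 0.522 in Control and 0.497, 0.496 and 0.531 in Prmt1-null libraries (exact permutation p = 1, adjusted over the 6 ratios 1). Smc1a to Smc3 was 1.06, 1.14 and 1.10 in Control and 0.960, 0.967 and 0.860 in Prmt1-null libraries. These groups did not overlap, with means of 1.10 ± 0.0387 and 0.929 ± 0.0598 (SD, n = 3, exact permutation p = 0.1, adjusted 0.2). The size of each ratio rests on exon lengths. The change of a ratio of 1 gene to 1 gene does not, whereas that of the summed SMC genes below does.

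Between condensin I and II, Ncaph to Ncaph2 was 1.94, 1.90 and 1.61 in Control and 1.43, 1.63 and 1.58 in Prmt1-null libraries. Control 3 lay below Prmt1-null 2, so the kleisin ratios overlapped (exact permutation p = 0.2, adjusted 0.3). Ncapd2 to Ncapd3, whose numerator and denominator both fell, had means of 3.67 ± 0.214 and 3.79 ± 0.116 (n = 3, exact permutation p = 0.5, adjusted 0.6). Ncapg to Ncapg2 was 1.58, 1.53 and 1.59 in Control and 1.53, 1.51 and 1.47 in Prmt1-null libraries, without overlap, although the nearest libraries both round to 1.53 (exact permutation p = 0.1, adjusted 0.2). The summed condensin SMC genes relative to the summed cohesin SMC genes were 3.12, 2.96 and 2.76 in Control and 2.64, 2.68 and 2.61 in Prmt1-null libraries. Every Prmt1-null library was lower (exact permutation p = 0.1, adjusted 0.2).

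**Figure D3:**
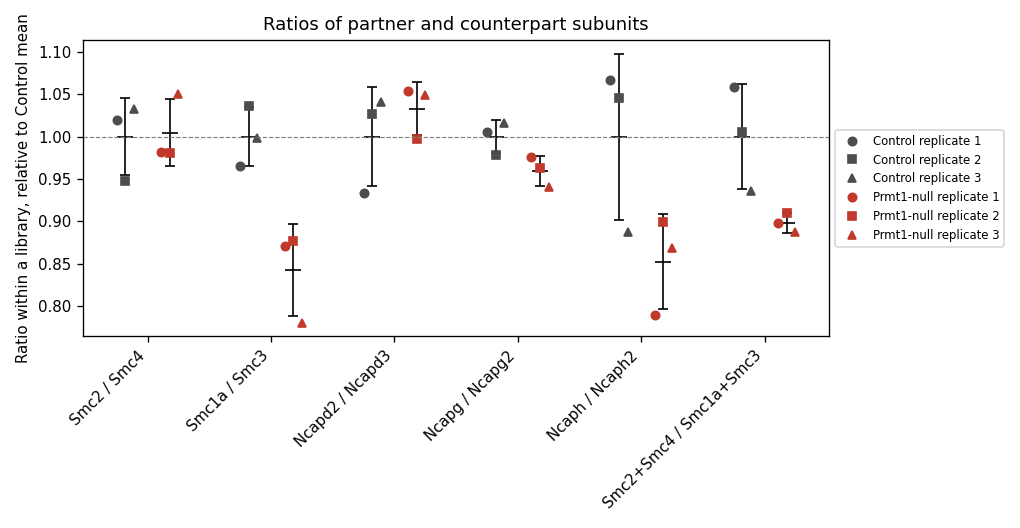
Ratio of partner or counterpart subunit genes within each library, relative to its Control mean (vertical axis, not starting at 0), with Control in grey, Prmt1-null in red, and bars for the mean and SD of 3 libraries. The groups of Smc2 to Smc4 overlap, and the red points of Smc1a to Smc3 lie below all grey points.

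Per kilobase of merged exons, Smc4 was the highest of the 10 genes in Control iGBs at 47.4 ± 5.05 CPM (SD, n = 3), followed by Ncapd2 at 35.7 ± 1.42, Ncaph at 29.0 ± 1.93 and Smc2 at 23.9 ± 2.13. Genes of condensin I thus stood above their condensin II counterparts: Ncapg was at 19.0 ± 1.62 and Ncapg2 at 12.1 ± 1.08, Ncaph2 at 16.0 ± 0.586, and Ncapd3 lowest of the 10 at 9.72 ± 0.192 CPM per kilobase. The cohesin genes Smc1a at 12.7 ± 0.688 and Smc3 at 11.5 ± 0.502 lay on either side of Ncapg2. Neighbors in this order did not overlap over the 3 Control libraries except Smc1a with Ncapg2 and Ncapg2 with Smc3. In Prmt1-null iGBs the means ran from 39.0 for Smc4 to 7.67 for Ncapd3, and Smc3, at 11.5, stood above Smc1a and Ncapg2, both at 10.7. All 10 were well expressed, between percentiles 70.4 and 92.3 of tested genes by level per kilobase. With the longest transcript in place of the merged exons, Ncapg2 stood at 25.7, above Smc2 at 24.3 and Ncaph2 at 20.4, Ncapg at 33.7 was above Smc2, and Ncapd3 at 14.0 above Smc3 at 13.1, so the middle and the end of the order depend on the gene model. Condensin I genes were above their counterparts with either length.

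**Figure D4:**
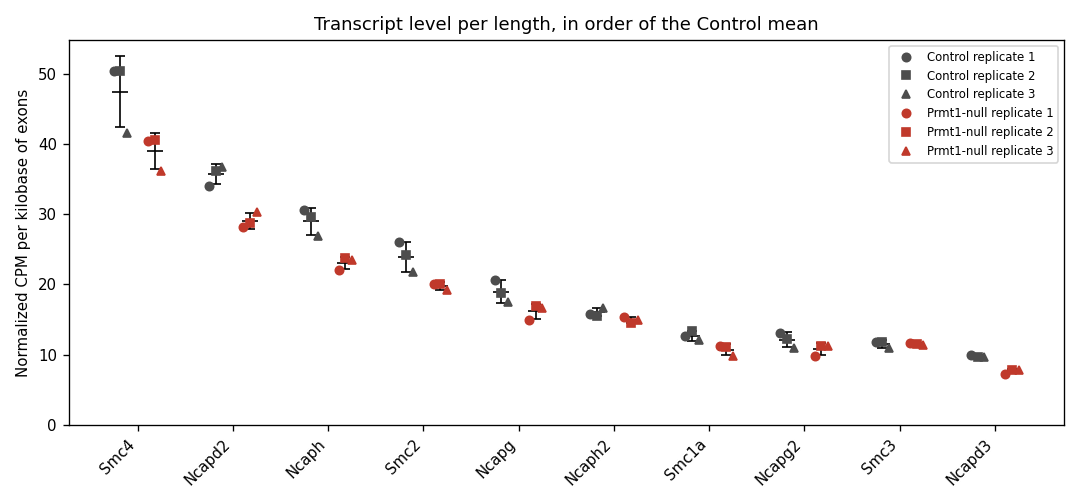
Normalized CPM per kilobase of merged exons (vertical axis, from 0) of each subunit gene in each library, ordered by the Control mean, with Control in grey, Prmt1-null in red, and bars for the mean and SD of 3 libraries. Smc4 is highest at 47.4 in Control, and Smc3 has the same level in both groups.

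The genes that work with these subunits were read from the same fit. The remaining cohesin subunits numbered 7, of which 5 were tested and 0 passed in either direction, with 2 at an unadjusted p under 0.05 (edgeR; DESeq2 passed 0 of the 3 genes it gave an adjusted p), beside 1.19% and 13.5% of all genes with edgeR and 5.42% with DESeq2. Their median log2 fold change was −0.12. Rec8, the meiotic kleisin, was at 2.45, 2.03 and 2.21 CPM in Control and 1.59, 0.731 and 1.21 in Prmt1-null libraries, a low level, with a log2 fold change of −0.92 (SE 0.31, edgeR adjusted p = 0.188). Stag1, a HEAT-repeat subunit of cohesin, had −0.12 (SE 0.056, edgeR adjusted p = 0.369). Rad21, the kleisin of mitotic cohesin, and Stag2 were looked up after the values were seen, as the direct partners of Smc1a and Smc3, and had log2 fold changes of −0.055 (edgeR adjusted p = 0.747) and −0.12 (0.471). Rad21 had −0.034 without Prmt1-null 1, and Stag2 −0.063 without Control 1. Of the germline subunits that were not tested, Rad21l had 0 counts in all 6 libraries, where 3 counts are 0.0475 to 0.0657 CPM, and Smc1b had 0, 1 and 0 counts in Control and 10, 4 and 22 in Prmt1-null libraries, a gene also named after its values were seen.

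Among 14 genes that load, release, acetylate, protect or cleave cohesin, 1 passed with edgeR and was lower in Prmt1-null iGBs, beside 1.19% of all genes in either direction. At an unadjusted p under 0.05 there were 5, beside 13.5% of all genes. DESeq2 passed 3, beside 5.42% of all genes, all lower (Esco2, Espl1 and Sgo2a, the last pair named after their values were seen). Of the exon bases of Sgo2a, 35.0% lie in exons of Kctd18 on the opposite strand. The list's median log2 fold change was −0.11. The gene was Esco2, the acetyltransferase that locks cohesin on replicated DNA by acetylating Smc3. It stood at 108, 92.5 and 88.8 CPM in Control and 69.3, 67.0 and 78.4 in Prmt1-null libraries, without overlap. Esco2 fell by 0.43 on the log2 scale (SE 0.081, edgeR adjusted p = 0.0241), and its call was lost without Control 1 (0.0609), Control 2 (0.0736), Prmt1-null 1 (0.144) or 2 (0.165). Nipbl, the cohesin loader, and Wapl, which releases cohesin from DNA, were looked up after the values were seen and had log2 fold changes of 0.023 (edgeR adjusted p = 0.940) and −0.099 (0.511). Nipbl turned to −0.071 without Control 3 and −0.022 without Prmt1-null 1, and Wapl had −0.059 without Control 1. Of 6 tested genes of the SMC5/6 complex, the remaining SMC complex of the nucleus, 0 passed with edgeR and 0 had an unadjusted p under 0.05 (DESeq2 also passed 0), with a median of −0.047. The smallest p among them belonged to Nsmce4a (log2 fold change −0.10, edgeR adjusted p = 0.614) and Nsmce3 (−0.14, 0.644). Without Prmt1-null 1 the list's median was −0.011, and without Control 1 Nsmce4a had −0.043 and Nsmce3 −0.068.

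Of 14 genes that act with condensin on mitotic chromosomes or control mitotic entry, 1 passed with edgeR, beside 1.19% of all genes, and 13 had a negative log2 fold change, beside 9154 of 18268 genes, the median being −0.13. DESeq2 passed 4, beside 5.42% of all genes, all lower (Kif4, Top2a, Aurkb and Ccnb2, the others than Kif4 named after their values were seen and also on the G2/M list below). The gene was Kif4, a chromokinesin that binds condensin I and shapes the chromosome axis, at 60.5, 58.8 and 54.2 CPM in Control and 47.3, 43.8 and 43.3 in Prmt1-null libraries. Kif4 fell by 0.37 on the log2 scale (SE 0.071, edgeR adjusted p = 0.0266). Its call was lost when any library other than Control 3 was left out, with edgeR adjusted p up to 0.165, and 15.1% of its exon bases lie in exons of Pdzd11 on the opposite strand. Top2a, the topoisomerase of the chromosome axis, looked up after its value was seen, had −0.19 (adjusted p = 0.209 with edgeR and 0.0414 with DESeq2).

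General cell cycle genes were read as 2 lists, beside shares over all genes of 1.19% called with edgeR, 5.42% with DESeq2 and 13.5% at an unadjusted p under 0.05. Of 42 tested S phase genes 3 passed with edgeR, all lower in Prmt1-null iGBs, and 7 with DESeq2, all lower. The median of the 42 was −0.14 on the log2 scale, 15 had an unadjusted p under 0.05, and 9 had a positive fold change. The 3 were Rfc2 of the clamp loader (−0.30, edgeR adjusted p = 0.0282), Ccne2, a cyclin E (−0.43, 0.0332), and Rrm2, the ribonucleotide reductase subunit (−0.30, 0.0330). Of 50 tested G2/M genes 2 passed with edgeR, also lower, and 14 with DESeq2, of which 13 were lower. The median of the 50 was −0.16, 28 had an unadjusted p under 0.05, and 7 had a positive fold change. The 2 were Kif11, the spindle motor (−0.36, edgeR adjusted p = 0.0152), and Hmgb2, a DNA-bending protein (−0.26, 0.0492). All 5 calls were lost without Control 2 or without any 1 of the Prmt1-null libraries (edgeR adjusted p up to 0.255), and all but that of Kif11 without Control 1. The call of Hmgb2 was also lost with limma-voom (adjusted p = 0.0579) and with sex as a covariate (0.0567, edgeR). Per library, relative to the Control mean on the log2 scale, the 8 condensin genes averaged 0.061, 0.013 and −0.074 in Control and −0.29, −0.22 and −0.24 in Prmt1-null libraries. The G2/M genes averaged 0.057, 0.0023 and −0.059 in Control and −0.20, −0.12 and −0.11 in Prmt1-null libraries, so Control 1 was highest and Prmt1-null 1 lowest for both lists. The S phase genes averaged 0.037, 0.032 and −0.069 in Control and −0.19, −0.088 and −0.068 in Prmt1-null libraries, with Control 3 and Prmt1-null 3 nearly equal. The part of the cell cycle makeup of the cultures in the subunits' values was not tested.

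**Figure D5:**
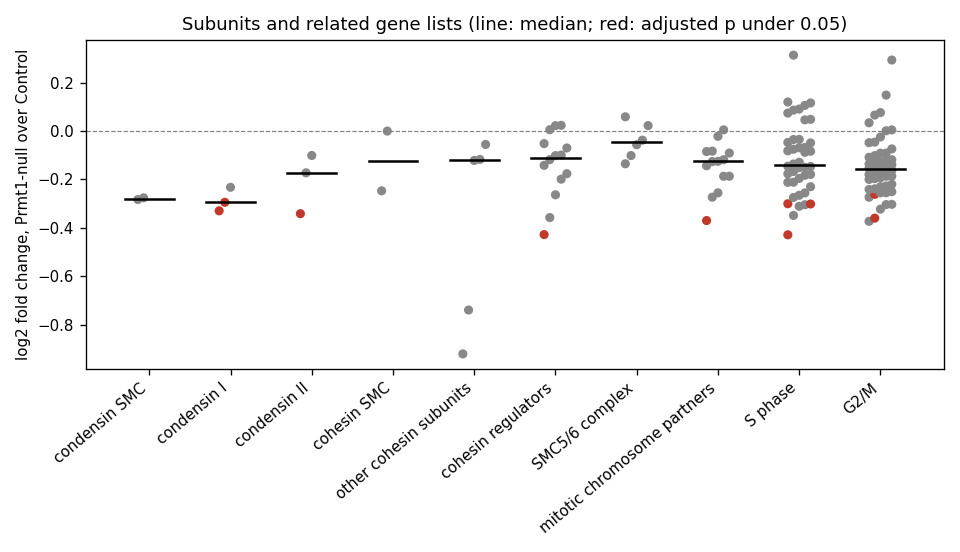
Log2 fold change, Prmt1-null over Control (vertical axis), of each tested gene of the subunit groups and of the related lists, with a line at each list's median and red for an adjusted p under 0.05. Medians are at −0.28 for condensin SMC, −0.29 for condensin I, −0.17 for condensin II and −0.12 for cohesin SMC genes, with −0.16 for G2/M and −0.14 for S phase genes.

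Of the 18258 tested genes outside the 10, the 5 whose pattern over the 6 libraries was nearest to the average of the 8 condensin genes were Smarcad1, Fam179b, Ate1, Srsf1 and Zadh2. Their root mean square difference from it in centered log2 CPM was 0.0197, 0.0204, 0.0209, 0.0217 and 0.0225. Each had a log2 fold change between −0.27 and −0.23, which follows from the way they were chosen.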

How the data were processed

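RNA of iGBs from 6 mice was sequenced as KAPA stranded, rRNA-depleted libraries. The authors trimmed reads with Trimmomatic 0.32, aligned them to mm10 (GRCm38) with STAR 2.3.0e, and counted primary alignments to few locations on Ensembl exons with featureCounts 1.4.4. What the authors deposited are raw read counts of each gene, neither normalized nor filtered. Counts were compared here in R 4.3.3 with edgeR 4.0.16: 398 chromosome Y genes were left out as in the study, filterByExpr (minimum count 10) and TMM were applied, and 18268 genes were tested by glmQLFit and glmQLFTest with Benjamini-Hochberg adjustment and a threshold of 0.05. The biological coefficient of variation was 0.154. Counting floors cover counting error only. Each library is a different mouse. The edgeR tests combine each gene's spread between 3 mice per group with the trend of spread over all genes.

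Gene coordinates and exon lengths came from GENCODE M21 (37607 genes matched by ID, 804 by symbol, 606 unmatched), promoters from RefSeq on GRCm38.p6, and S phase and G2/M lists from Seurat 5.3.0 without the 10 genes. The genes and lists were chosen with earlier results of these data known. Named were the 10 genes, Prmt1, each list's genes past the threshold (otherwise the 2 with the smallest p) and the 5 genes nearest in pattern. Eid3 was not analysed here, and 1 marker list is not reported here. The alternatives were DESeq2 1.42.0, limma-voom (limma 3.58.1), other size factors, no filter, chromosome Y kept, sex as a covariate, a replicate block, each library left out, other thresholds, and longest transcripts. The code was tested on simulated data.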

Additional observations from a re-analysis of the deposited data

How the results depend on the processing

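The number of subunit genes past the threshold was 3 of 10, all lower in Prmt1-null iGBs, beside 218 of all genes and 2 (Esco2 and Kif4) of the cohesin, SMC5/6 and mitotic lists. DESeq2 gave 7 of 10, all lower, 709 of all genes and 7 of the lists, and edgeR without a filter gave 7, all lower, 710 and 6. A fold change over 1.4 in addition left 0 of the 10 and 87 of all genes, and an adjusted p under 0.10 gave 4 of the 10 and 471 of all genes. Leaving out each library in turn gave 0 to 5 of the 10, 31 to 350 of all genes and 0 to 3 of the lists. The count of the 10 was 0 without Control 2 or without any 1 of the Prmt1-null libraries, and 5 without Control 3. Over 8 other settings with all libraries, Ncapd3 and Ncaph passed in 8 and Ncapd2 in 7. Smc3, at 0.00014 on the log2 scale, turned to −0.00063 with DESeq2, −0.0013 with DESeq2's size factors and −0.011 with total counts, and ran from −0.035 to 0.025 with a library left out, where Nipbl ran from −0.071 to 0.12. The cause of these differences was not tested.

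Deviations of same-numbered libraries correlated at −0.075, 0.045 and −0.078 over 18268 genes, which shows no pairing by number but cannot exclude a shared preparation. The mitochondrial share fell with the replicate number in both groups. It was 3.51%, 2.74% and 1.96% in Control 1, 2 and 3 and 3.26%, 2.93% and 1.95% in Prmt1-null 1, 2 and 3. Whether same-numbered libraries were prepared together was not tested. With the number as a replicate block, 2 of the 10 passed, with 152 of all genes, and Ncapd2 had −0.29 with an edgeR adjusted p of 0.0529. The block also ended the calls of Rfc2 (adjusted p = 0.0547) and Hmgb2 (0.0781).

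The subunit genes had at least 2997 counts in each library. The 95% intervals of Smc2, Smc4, Ncapg, Ncapg2 and Smc1a lay below 0 while their edgeR adjusted p missed the threshold. Rec8, Stag3 and Smc1b rest on few counts.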
